A study of Mus musculus with 4 samples.

Results

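Claudins are the membrane proteins that build the strands of tight junctions, the seals between neighbouring epithelial cells. Some of them, such as Cldn2 and Cldn15 in mouse intestine, form paracellular channels that let small cations pass, and others tighten the seal, so the set of claudins in an epithelium bears on how leaky it is. The small intestine is known as a leaky epithelium and the distal colon as a tight one. The genes described here are 8 claudins chosen by name: Cldn2, Cldn3, Cldn4, Cldn7, Cldn8, Cldn12, Cldn15 and Cldn23. All 8 were measured, each by 1 probe set (the group of probes that the array reads as 1 feature), out of 22180 genes on the array.

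The study hybridised 4 whole-transcript Affymetrix mouse arrays, 1 per group, and its T cells came from C57Bl/6 mice aged 8 to 10 weeks. The groups were intraepithelial lymphocytes (IEL, T cells lodged between epithelial cells) of the small intestine, a sample labelled T cells of the colon lamina propria (the tissue layer under the epithelium), IEL of the colon after recolonization, and IEL of the colon of unmanipulated mice. Mice of the recolonized group had drunk ampicillin, neomycin, metronidazole and vancomycin with a flavoured drink powder for 7 days and were then exposed to untreated littermates or their bedding for 7 days. Each RNA came from pooled mice, given as 10 animals (5 males and 5 females), and T cells were enriched by magnetic removal of other cells, with an antibody against the epithelial protein EpCAM added. Whether arrays shared mice is not given in the sources used here.

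The claudins were therefore read in preparations meant to be depleted of the cells that make them. Marker genes show how much epithelial transcript each array still held. The log2 level of the median pan-epithelial marker, of 16, was 6.31 in small intestinal IEL, 8.28 in the sample labelled as lamina propria cells, 4.67 in recolonized colon IEL and 4.27 in colon IEL. Cd3e, which belongs to the T cell receptor complex, was at 9.49 in small intestinal IEL, 3.72 in the sample labelled as lamina propria cells, 9.43 in recolonized colon IEL and 9.17 in colon IEL. The sample labelled as lamina propria cells thus went against its label: its 7 measured T cell markers had a median of 2.61, near its median gene level of 2.18, and its 10 colonocyte markers a median of 9.83. It is called the LP-labelled array below, every comparison with it is given beside those with the 2 colon IEL arrays, and how its content arose was not tested. With 1 array per group there is no replicate error, no test and no p-value, and the amount of epithelial RNA in a sample cannot be told apart from the amount of a claudin transcript per epithelial cell.

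The regions upstream of 4 of these genes are shown because the genes take opposite places in the results: Cldn15 was as high on the small intestinal as on the LP-labelled array, Cldn3 and Cldn4 were lower on the small intestinal one, and Cldn2 lay below the median gene on all 4 arrays. Each sequence is the 250 bases before the gene's start in RefSeq, build GRCm38.p6, written 5′ to 3′ on the gene's strand, with capitals marking TTTAT or its reverse complement, the core recognised by the intestinal homeobox factors Cdx1 and Cdx2.
Cldn15, chr5:136967619-136967868, plus strand: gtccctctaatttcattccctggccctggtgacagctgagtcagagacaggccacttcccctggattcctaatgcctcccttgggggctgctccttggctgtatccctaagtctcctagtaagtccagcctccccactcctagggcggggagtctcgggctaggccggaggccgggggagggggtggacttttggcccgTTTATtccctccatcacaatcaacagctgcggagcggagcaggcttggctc
Cldn3, chr5:134985964-134986213, plus strand: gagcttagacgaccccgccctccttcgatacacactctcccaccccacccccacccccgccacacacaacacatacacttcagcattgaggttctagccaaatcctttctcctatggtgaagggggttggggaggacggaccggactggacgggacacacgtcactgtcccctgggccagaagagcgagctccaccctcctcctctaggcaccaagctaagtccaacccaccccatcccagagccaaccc
Cldn4, chr5:134946935-134947184, minus strand: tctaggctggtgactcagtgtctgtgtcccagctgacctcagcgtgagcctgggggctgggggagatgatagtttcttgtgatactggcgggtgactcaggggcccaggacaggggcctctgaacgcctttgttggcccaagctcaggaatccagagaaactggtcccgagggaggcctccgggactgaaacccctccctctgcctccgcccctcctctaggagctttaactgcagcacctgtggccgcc
Cldn2, chrX:139800558-139800807, plus strand: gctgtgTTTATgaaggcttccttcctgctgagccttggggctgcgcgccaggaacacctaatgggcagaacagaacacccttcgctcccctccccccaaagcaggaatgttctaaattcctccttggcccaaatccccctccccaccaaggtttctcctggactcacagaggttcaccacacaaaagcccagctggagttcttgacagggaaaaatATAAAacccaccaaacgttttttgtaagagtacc
Cldn3 and Cldn4 are neighbours on chromosome 5, with starts 39.3 kb apart. The table of upstream sequences held 9 windows for 6 of the 8 claudins; Cldn8 and Cldn23 are named only. TTTAT, searched on both strands, was present once in the Cldn15 window, beginning 51 bases before the start, and at 2 places in the Cldn2 window, beginning 244 and 34 bases before the start. It was in no window of Cldn3, Cldn4, Cldn7 or Cldn12, and 37.3% of all 32851 windows of the same length held it. The GC box GGGCGG was found in the windows of Cldn15, Cldn3 and Cldn4, in 1 of 2 windows of Cldn7 and in 2 of 3 of Cldn12, against 32.7% of all windows. The letters AGATAA, CAAAGTCCA and AACCGGTT, searched for GATA factors, HNF4A and grainyhead-like factors, were in none of the 9 windows and in 9.99%, 0.384% and 0.116% of all windows. The windows of Cldn12 overlap, and the GC box found in 2 of them is the same one. All these matches describe letters only and are not binding sites.

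**Figure D1:**
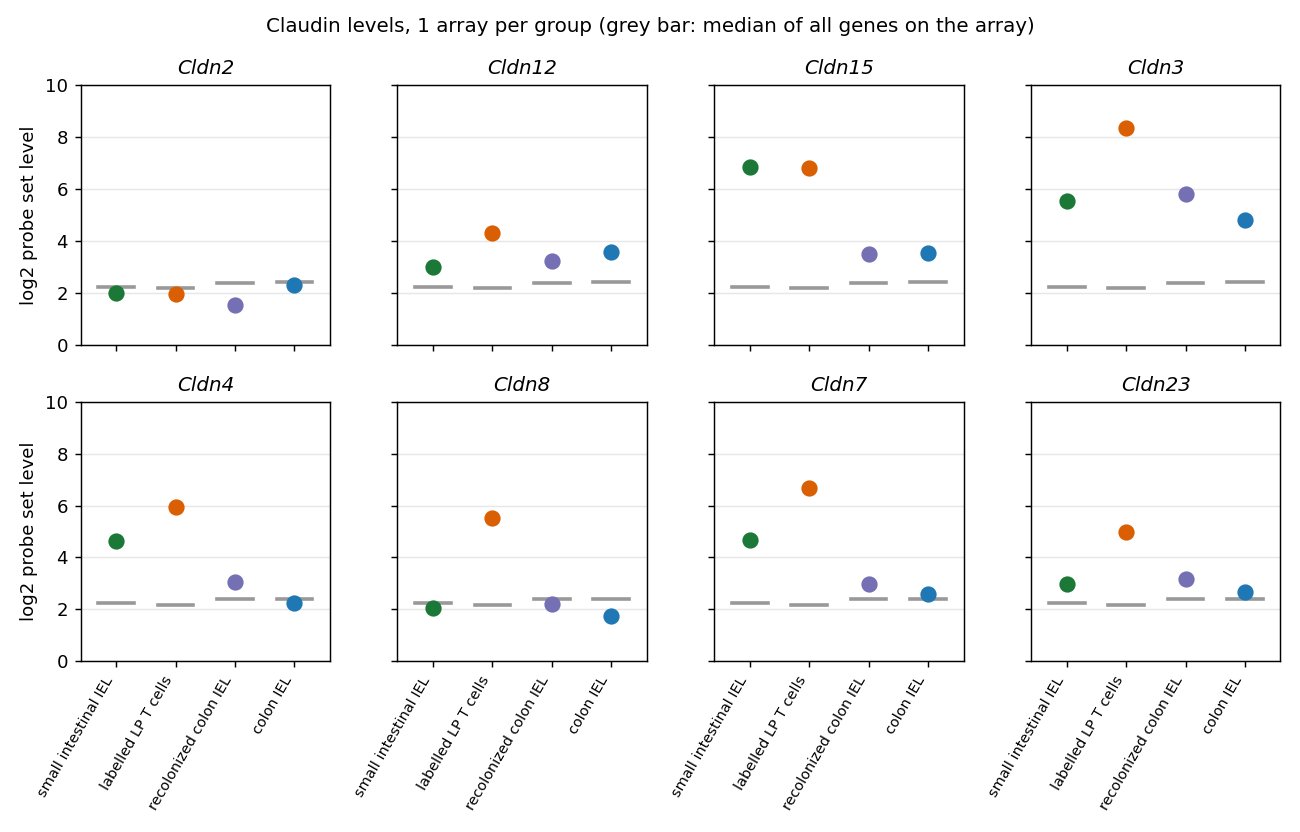
Log2 probe set level of each of the 8 claudins on the 4 arrays, 1 point per array, with the median of all genes on that array as a grey bar. The Cldn15 points of the small intestinal IEL array and the LP-labelled array lie together at 6.84 and 6.79, while the Cldn8 point lies above the grey bar on the LP-labelled array only.

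The first question was how small intestinal material differed from the epithelium-rich colonic array. Against the LP-labelled array, 6 of the 8 claudins were at least 2-fold lower in small intestinal IEL and none was at least 2-fold higher. They were Cldn3, Cldn4, Cldn7, Cldn8, Cldn12 and Cldn23, with folds between 2.43 for Cldn12 and 11.1 for Cldn8. Cldn15 alone of the claudins above the level floor was within 2-fold. The floor required that a gene reach the median gene level of the brighter array of the pair; 7 of the 8 claudins passed it and Cldn2 did not. Cldn8 passed only through the LP-labelled array, so its place among the lower genes follows in part from the filter. Over the 12164 genes that passed the floor, 15.7% reached 2-fold lower and 8.76% reached 2-fold higher in small intestinal IEL. The median difference was −1.65 over the 8 claudins and −0.17 over all genes above the floor. The pan-epithelial markers had a median of −1.86, so the claudins as a list were lower to about the same extent as general epithelial genes, with a difference of 0.21 between the medians.

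The second question was how small intestinal IEL differed from IEL of the colon. Here 3 of the 8 claudins, Cldn4, Cldn7 and Cldn15, were at least 2-fold higher in small intestinal IEL against the recolonized array and also against the colon IEL array, and no claudin was at least 2-fold lower. In both comparisons 6 of the 8 claudins passed the floor, and Cldn2 and Cldn8 did not. Against recolonized colon IEL, 17.9% of 12382 genes that passed reached 2-fold higher and 4.76% reached 2-fold lower. Against colon IEL, the shares were 24.4% higher and 5.98% lower of 12553 genes. The median claudin difference was 0.15 against recolonized and 0.53 against unmanipulated colon IEL, beside 0.20 and 0.30 over all genes above the floor. Against recolonized colon IEL 4 of the 8 values were below 0, and centring turned the claudin median to −0.05. The pan-epithelial markers differed by medians of 0.97 and 1.95 in the same 2 comparisons. These comparisons share the small intestinal array.

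**Figure D2:**
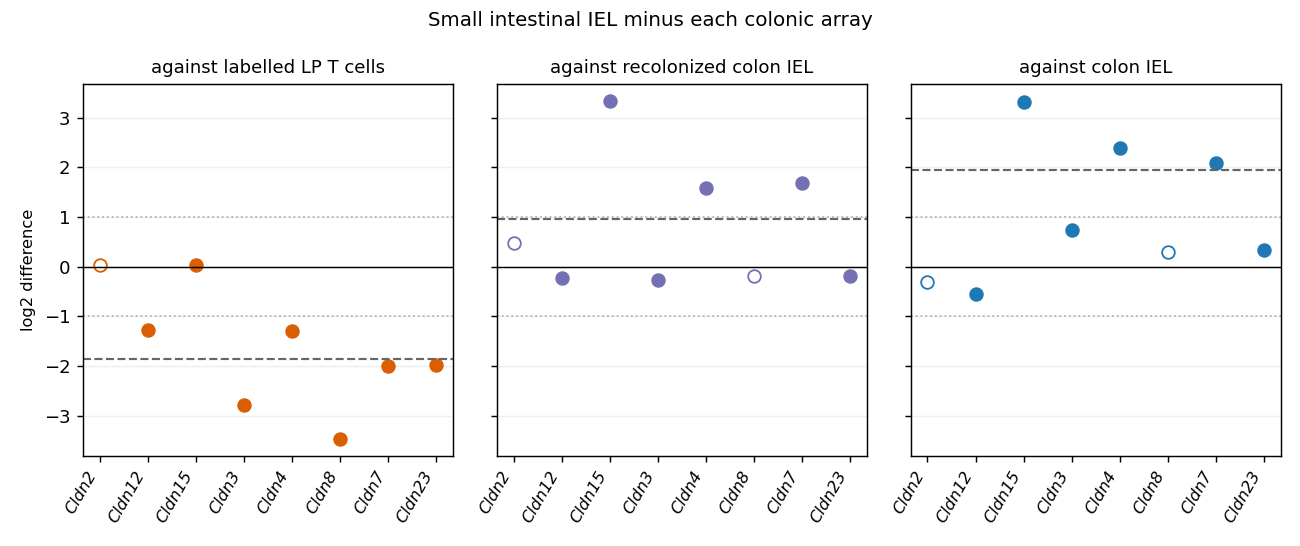
Log2 difference of each claudin, small intestinal IEL minus the LP-labelled array, minus recolonized colon IEL and minus colon IEL, from left to right. Filled points passed the level floor and open points did not, dotted lines mark 2-fold, and the dashed line is the median difference of the pan-epithelial markers (−1.86, 0.97 and 1.95). Cldn15 lies above the dashed line in all 3 panels, and Cldn3 lies below it in all 3. Cldn8 lies below it as a filled point in the left panel. In the middle and right panels Cldn8 is an open point, and its place there is not read.

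Among the channel-forming claudins, Cldn15 carried the clearest contrast. In mice Cldn15 forms a sodium-permeable channel of the small intestinal epithelium, and mice without it have an enlarged small intestine. Its level was 6.84 on the small intestinal IEL array, against 6.79 on the LP-labelled array, 3.49 on the recolonized array and 3.51 on the colon IEL array. The small intestinal and LP-labelled values were alike and the colon IEL values were a pair well below them. The log2 difference was 0.04 against the LP-labelled array, which lay above that of 14 of the 16 pan-epithelial markers, the exceptions being the brush border protein Vil1 and the keratin Krt20. Against recolonized and unmanipulated colon IEL it was 3.35 and 3.32, or 10.2-fold and 10.0-fold. It thereby stood at the 98.4th and 98.0th percentile of genes above the floor. These differences remained at or above 2.65 and 2.36 under quantile normalization, centring and a lowess correction.

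Taken relative to the median difference of the pan-epithelial markers, Cldn15 was 1.90 higher in small intestinal IEL than on the LP-labelled array, a 3.73-fold excess, and 2.38 and 1.37 higher than on the recolonized and unmanipulated colon IEL arrays. With only Epcam, Cdh1 and Vil1 as the epithelial measure, these 3 values were 1.36, 1.38 and −0.27, so the direction against colon IEL depended on the marker set. Markers of small intestinal enterocytes were read beside Cldn15. The median of the 13 measured ones was at 9.50 on the small intestinal IEL array, against 4.82 on the LP-labelled array, 2.66 on the recolonized array and 2.28 on the colon IEL array. All 13 were at least 2-fold higher in small intestinal IEL than on the LP-labelled array, against 8.76% of all genes above the floor. Cldn15 was within 2-fold in that comparison. The 13 differences ranged from 1.45 to 7.46. The largest were the fatty acid binding protein Fabp1 with 7.46 and the apolipoprotein Apoa4 with 6.75. Lactase (Lct) followed with 5.65 and the lipid transfer protein Mttp with 5.19. Fabp1 and Lct lay under the median gene of the LP-labelled array. They passed the floor only through the small intestinal array, and their sizes are limited by the low end of the LP-labelled one. The part of the enterocyte markers in the Cldn15 level was not tested.

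Cldn2, which forms a cation and water channel and is known from the crypts of the intestine, was not detected above the typical gene. Its level was 2.001 on the small intestinal IEL array, against 1.97 on the LP-labelled array, 1.53 on the recolonized array and 2.30 on the colon IEL array. All 4 values were below the median gene of their array, so the order among them is not read. Crypt stem cell markers were also low on the small intestinal array, with a median of 2.25, and 3 of 6 were at or above the array median. On the LP-labelled array their median was 3.56 and all 6 were at or above the array median. Cldn2 stayed low there too. Paneth cell markers, another crypt list, went the other way, with medians of 9.20 on the small intestinal array and 3.04 on the LP-labelled array. All 8 of them were at or above the array median on the small intestinal array. The part of crypt cells in the Cldn2 level was not tested.

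Cldn12, which has been linked to calcium permeability in mouse intestine, was at 3.01 on the small intestinal IEL array, against 4.29 on the LP-labelled array, 3.23 on the recolonized array and 3.55 on the colon IEL array. Its range over the 4 arrays was the smallest of the claudins above the floor, at 1.28. It was 2.43-fold lower in small intestinal IEL than on the LP-labelled array, and this fell under 2-fold, at −0.84, after quantile normalization. Against the colon IEL arrays it differed by −0.22 for recolonized and −0.55 for unmanipulated, although pan-epithelial markers were higher in small intestinal IEL. No pan-epithelial marker had so low a difference against unmanipulated colon IEL.

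The barrier claudins Cldn3, Cldn4 and Cldn8 were all at least 2-fold lower in small intestinal IEL than on the LP-labelled array, with a median difference of −2.79. Cldn3, a sealing claudin of many epithelia, was at 5.54 on the small intestinal IEL array, against 8.33 on the LP-labelled array, 5.81 on the recolonized array and 4.81 on the colon IEL array. The LP-labelled array stood apart and the 3 IEL arrays lay within about 1 log2 unit. The difference against the LP-labelled array was −2.79, or 6.92-fold, and exceeded in size that of 13 of the 16 pan-epithelial markers. Against recolonized colon IEL it was −0.27. Against colon IEL it was 0.73, which turned to −0.44 with quantile normalization and to −0.23 with the lowess correction.

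Cldn8, a sealing claudin of the distal colon and the kidney collecting duct, was at 2.04 on the small intestinal IEL array, against 5.51 on the LP-labelled array, 2.22 on the recolonized array and 1.73 on the colon IEL array. It exceeded the median gene on the LP-labelled array only. The difference of −3.47 was the largest of the 8 claudins in that comparison, lay at the 1.00th percentile of genes above the floor, and was 1.62 further down than the median pan-epithelial marker. Among those markers only the splicing factor Esrp1, with −3.91, was lower. The size is limited by the low end of the small intestinal array, since Cldn8 lay under its median gene there. Colonocyte markers moved with it: their median was 4.81 on the small intestinal IEL array and 9.83 on the LP-labelled array. Of 10 such markers 9 were at least 2-fold lower in small intestinal IEL, against 15.7% of all genes above the floor. Car1, a carbonic anhydrase, differed by −10.04, the amino acid transporter Slc6a14 by −7.41, the cytochrome Cyp2c55 by −5.67 and the water channel Aqp8 by −5.39. Car1, Slc6a14 and Aqp8 lay under the median gene of the small intestinal array. They passed the floor only through the LP-labelled array, and their sizes are limited in the same way. On the recolonized array the colonocyte median was 5.55 while Cldn8 stayed at 2.22. On the colon IEL array the colonocyte median was 3.19, lower than in small intestinal IEL, and Cldn8 was at 1.73. Against that array 8 colonocyte markers passed the floor. Of these 5, with Cyp2c55 among them, were at least 2-fold higher in small intestinal IEL and 2 were lower. Over all genes 24.4% and 5.98% were. The part of colonocytes in the Cldn8 difference was not tested.

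Cldn4, a sealing claudin that is also a receptor of Clostridium perfringens enterotoxin, was at 4.65 on the small intestinal IEL array, against 5.95 on the LP-labelled array, 3.07 on the recolonized array and 2.24 on the colon IEL array. It was 2.47-fold lower than on the LP-labelled array, with −0.84 after quantile normalization and −0.98 once corrected by lowess. It was 2.99-fold higher than on the recolonized array. On the colon IEL array it lay below the median gene, so it passed the floor only through the small intestinal array, and the 5.29-fold difference there is limited by the low end of the colon IEL array. The small intestinal array was the second brightest of the 4 for Cldn4 and the third for its neighbour Cldn3. The place of Cldn3 rests on a difference of −0.27 against the recolonized array. The measures of scatter given below for that pair were 0.53 and 0.95, so the Cldn3 order there is not read.

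Cldn7, which in gut epithelium lies largely along the lateral membrane and is needed for intestinal integrity in mice, followed Cldn4. Its level was 4.67 on the small intestinal IEL array, against 6.68 on the LP-labelled array, 2.99 on the recolonized array and 2.59 on the colon IEL array. The differences were −2.01, 1.68 and 2.08, and lay −0.15, 0.71 and 0.13 from the pan-epithelial median of the same comparison. With Epcam, Cdh1 and Vil1 as the epithelial measure the last 2 values were −0.29 and −1.52, so their direction depended on the marker set. The root mean square distance between the mean-centred profiles of Cldn4 and Cldn7 over the 4 arrays was 0.32. It was about as small as the 0.31 between Cldn3 and Cldn8, the smallest among the pairs of the 8 claudins. The latter includes Cldn8 values below the median gene on every IEL array, so that likeness is limited. Between Cldn15 and Cldn3 the distance was 1.36.

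Cldn23, a claudin of differentiated surface cells in the colon, was at 2.98 on the small intestinal IEL array, against 4.97 on the LP-labelled array, 3.17 on the recolonized array and 2.65 on the colon IEL array. It was 3.98-fold lower than on the LP-labelled array. The 3 IEL arrays differed by little, with −0.19 and 0.33 for small intestinal minus recolonized and unmanipulated colon IEL. Pan-epithelial markers were higher in small intestinal IEL in these pairs, and 15 of 16 of them had larger differences than Cldn23 in each.

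**Figure D3:**
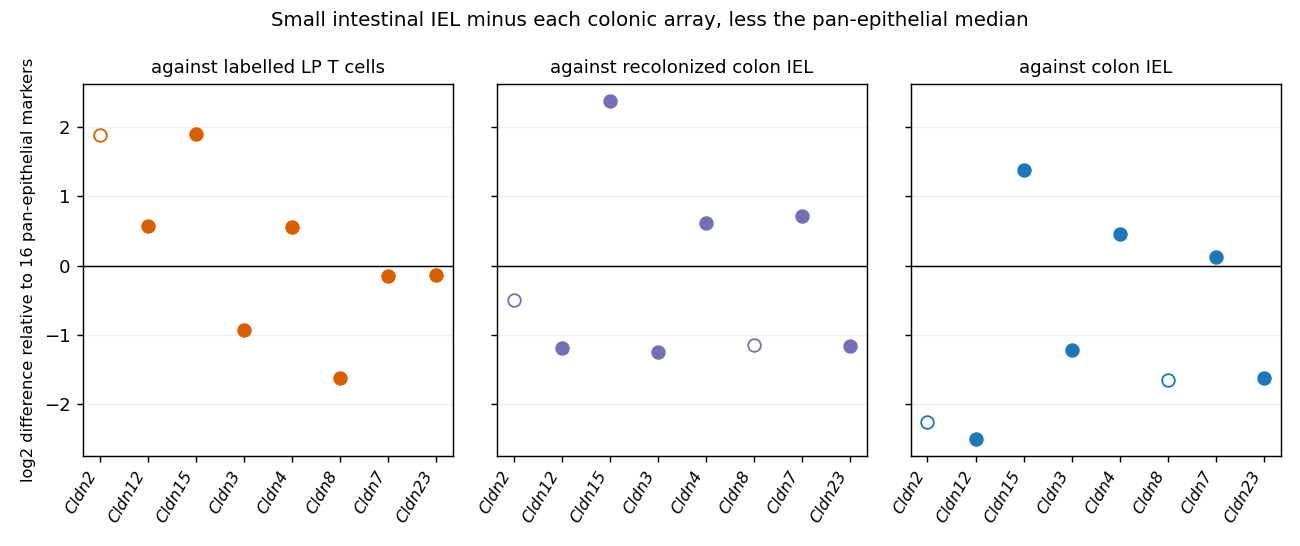
Log2 differences of the 8 claudins after subtraction of the median difference of the 16 pan-epithelial markers in the same pair of arrays. Cldn15 is at 1.90, 2.38 and 1.37 from left to right and Cldn8 at −1.62 in the left panel, with open points for claudins below the level floor. In the middle and right panels Cldn8 is such an open point, and its values there are not read.

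The last comparison asked how claudins of colon IEL preparations differed after antibiotics and recolonization. Only Cldn3 was at least 2-fold higher on the recolonized array, by 1.00 on the log2 scale, and none was at least 2-fold lower. Over 12443 genes that passed the floor, 6.04% reached 2-fold higher and 3.06% reached 2-fold lower, and 6 of the 8 claudins passed the floor. The Cldn3 value sat on the threshold and was 0.60 once corrected by lowess and 0.65 with quantile normalization. Cldn4 differed by 0.82, or 1.08 with quantile normalization, Cldn23 by 0.52 and Cldn7 by 0.40, while Cldn15 differed by −0.03 and Cldn12 by −0.33. Pan-epithelial markers were higher by a median of 0.82 and Epcam by 1.63, and 7 of the 16 reached 2-fold higher. Relative to their median Cldn15 was at −0.84. The measures of scatter given below for this pair were 0.53 over reference genes and 0.78 between probe sets. Whether Cldn15 departed from the epithelial markers between these arrays therefore cannot be told. The claudin median of 0.44 stood beside 0.13 for all genes above the floor.

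As measures of scatter within a comparison, the SD of the log2 differences over 10 reference genes was 0.55 against the LP-labelled array, 0.53 against recolonized colon IEL, 0.70 against colon IEL and 0.53 between the colon IEL arrays. Their median differences were −0.23, 0.38, 1.03 and 0.39 in the same order, so reference genes were themselves higher in small intestinal IEL than in colon IEL. Of the 10, 5 reached 2-fold higher there, beside 24.4% of all genes above the floor. Where a gene had more than 1 probe set, the differences read from its 2 brightest varied with an SD of 0.96, 0.95, 1.12 and 0.78 in the same order. The Cldn15 differences against both colon IEL arrays were more than 2-fold larger than these SDs. So were those of Cldn3, Cldn7, Cldn8 and Cldn23 against the LP-labelled array, and that of Cldn4 against unmanipulated colon IEL. Cldn8 and Cldn4 passed the floor in these pairs through 1 array only, so their place here follows in part from the filter. These SDs describe genes and probe sets and are not replicate errors.

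Other symbols that begin with Cldn were mostly low. Of 25 further genes, 17 lay below the median gene on all 4 arrays, among them the widely studied Cldn1 and the endothelial Cldn5. The 8 others were Cldn9, Cldn11, Cldn13, Cldn18, Cldn19, Cldn22, Cldnd1 and Cldnd2. None was at least 2-fold different between small intestinal IEL and the LP-labelled array, where 6 passed the floor. Over all genes above it 15.7% were 2-fold lower and 8.76% 2-fold higher. Cldn22 was at 1.70 in small intestinal IEL, against 2.55 on the recolonized array and 3.56 on the colon IEL array. It was the only 1 of the 25 at least 2-fold lower than in colon IEL, and passed the floor only through the colon IEL array. Cldnd1, a claudin-domain protein, was the only 1 at least 2-fold higher, at 6.32 against 5.06. In that comparison 8 of the 25 passed the floor, and over all genes 5.98% were 2-fold lower and 24.4% 2-fold higher. With so few genes these counts are not read as a result about the family. Cldnd1 was at 6.60 on the LP-labelled array, so it varied by less than 2-fold between the epithelium-rich arrays.

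Partners of the claudins in the junction were set beside them. Of 11 strand and corner proteins, 8 passed the floor against the LP-labelled array; 7 were at least 2-fold lower in small intestinal IEL and none higher, where 15.7% and 8.76% of all genes were, and the median over all 11 was −1.98. Occludin (Ocln), a strand protein, was at 5.24 on the small intestinal IEL array, against 7.27 on the LP-labelled array, 4.59 on the recolonized array and 3.43 on the colon IEL array. Ildr1, an angulin of the corners where 3 cells meet, was at 2.43 on the small intestinal IEL array, against 7.35 on the LP-labelled array, 3.23 on the recolonized array and 2.60 on the colon IEL array. Its difference of −4.92 against the LP-labelled array was larger in size than that of any of the 8 claudins. Marveld2 (tricellulin), another corner protein, differed by −2.04, the virus receptor Cxadr by −2.54 and the adhesion molecule F11r by −2.07. The angulin Lsr, chosen after its values were seen, differed by −0.45 and was 2.07 and 2.50 higher in small intestinal IEL than in recolonized and unmanipulated colon IEL.

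Proteins of the cytoplasmic plaque under the strands differed less against the LP-labelled array: 4 of the 12 that passed the floor reached 2-fold lower, none reached 2-fold higher (15.7% and 8.76% of all genes did), and the median over 13 measured was −0.73. The 4 were the transcription factor Ybx3 with −1.77, the scaffolds Tjp1 with −1.29 and Magi1 with −1.05, and Tjp3, a scaffold at 5.61 on the small intestinal IEL array against 7.11 on the LP-labelled array. Tjp1 (ZO-1), the scaffold that tethers claudins to actin, was at 5.27 on the small intestinal IEL array, against 6.56 on the LP-labelled array, 2.85 on the recolonized array and 3.12 on the colon IEL array. Against recolonized colon IEL 4 of the 11 plaque genes that passed the floor reached 2-fold higher and none 2-fold lower, and against colon IEL 4 of 11 reached 2-fold higher and 2 reached 2-fold lower. The shares over all genes were 17.9% higher and 4.76% lower against recolonized colon IEL, and 24.4% higher and 5.98% lower against colon IEL.

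**Figure D4:**
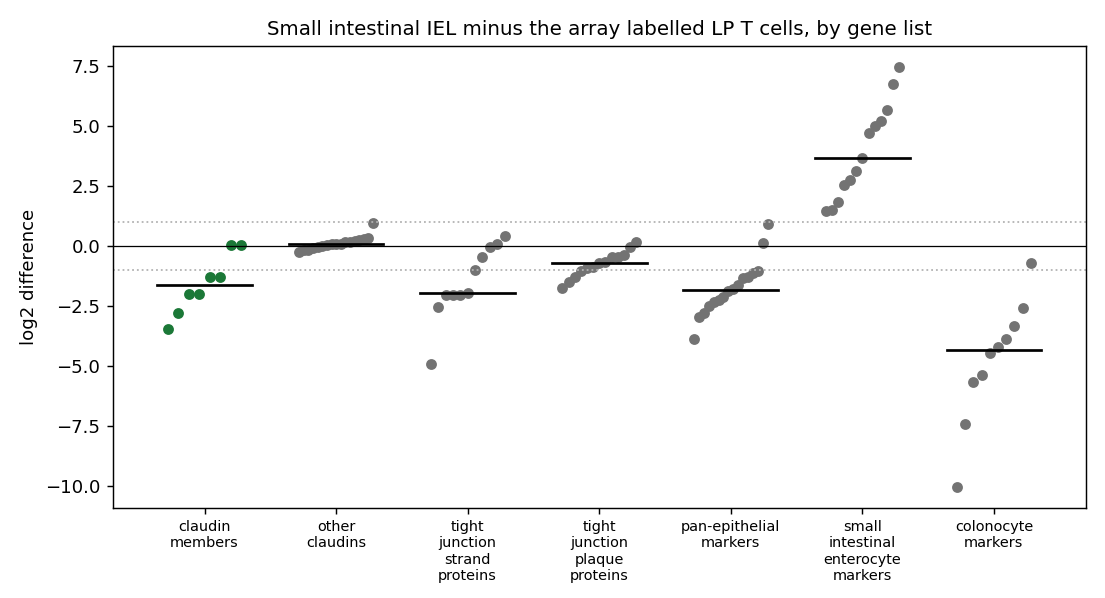
Log2 difference, small intestinal IEL minus the LP-labelled array, for each measured gene of 7 lists, sorted within a list, with the list median as a black bar and 2-fold as dotted lines. The medians are −1.65 for the 8 claudins, −1.98 for strand proteins, −0.73 for plaque proteins and −1.86 for pan-epithelial markers, between 3.65 for enterocyte markers and −4.35 for colonocyte markers.

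Genes outside the family with the most similar profile were found by the root mean square distance between mean-centred log2 levels on the 4 arrays, over 13808 genes above the median on at least 1 array. For Cldn15 the nearest were Car13, a cytosolic carbonic anhydrase, at a distance of 0.07, the glycolipid galactosyltransferase B4galt6 at 0.13 and Golt1a at 0.14. Car13 was at 6.16 on the small intestinal IEL array, against 6.14 on the LP-labelled array, 2.74 on the recolonized array and 2.68 on the colon IEL array. Only 31 genes lay within 0.3 of Cldn15, against 60 for Cldn3, 74 for Cldn8, 78 for Cldn7, 129 for Cldn4, 330 for Cldn23 and 797 for Cldn12. The counts are high where the claudin itself varied little.

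For Cldn3 the nearest genes were the transcription factor Myb, the glycosyltransferase Mgat4b and the receptor kinase Erbb2, at 0.07, 0.12 and 0.13. For Cldn8 they were Fermt1, an integrin adaptor, at 0.04, Ddah1 at 0.04 and the tetraspanin Tspan12 at 0.10. For Cldn4 they were Plekhb2, Etfa and Tmem14c, with distances from 0.06 to 0.08, and for Cldn7 the semaphorin receptor Plxnb2, Akr1c14 and Pcbd1, from 0.04 to 0.07. Those of Cldn23 were Glce, Plekha6 and Naglu, all at 0.04. Those of Cldn12 were Amt, 3010003L21Rik and Tead1. None is named for Cldn2, whose values all lay below the median gene. With 4 arrays that also differ in epithelial content, such likeness describes these arrays only. For Cldn8 it also includes values below the median gene on every IEL array.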

How the data were processed

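The deposited values are log2 levels per probe set for 4 arrays, for which the submitters' processing notes name Affymetrix Expression Console; its version, and how the authors summarized and normalized the probes, is not given in the sources used here. Of 41345 probe sets, 23521 listed 1 gene symbol, 1814 listed several and named no gene, and 16010 were not in the gene table used. A gene was represented by its single-symbol probe set with the highest mean, which gave 22180 genes. Each comparison is a difference of log2 levels between 2 arrays (Python 3.11.15, pandas 2.3.3, statsmodels 0.14.6), called at 2-fold or more when the gene reached the 50th percentile of all genes on whichever array was brighter. The steps were tested on simulated data. The number of arrays limits the precision; no test was possible. The 8 claudins and the 18 gene lists were chosen with earlier results of these data known. Named were the 8 claudins, other claudins above the array median on any array, the 4 genes per described list that differed most between small intestinal IEL and the LP-labelled array, a few fixed genes (Epcam, Cdh1, Vil1, Cd3e, Ocln, Tjp1, Marveld2), and the 3 nearest profiles per claudin (left out for Cldn2). Some listed genes are not reported here. Alternatives were other floors (25th and 75th percentile, none) and thresholds (1.5-fold and 3-fold), the mean of probe sets, quantile normalization, median centring, a lowess correction (span 0.3) and a smaller epithelial marker set. Upstream sequences are RefSeq's, build GRCm38.p6; the build behind the probe sets is not given in the sources used here.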

Additional observations from a re-analysis of the deposited data

How the results depend on the processing

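The alternatives were set against the counts and medians of the 8 claudins in 4 comparisons. A median was taken as moved when it shifted by more than the SD over reference genes, and a count when it changed by over 1.5 times. Against the LP-labelled array neither counts nor medians moved; the 6 lower claudins became 4 at 3-fold or with quantile normalization and 5 with lowess. Under quantile normalization 1 claudin, Cldn12, was at least 2-fold lower against colon IEL, and 1, Cldn3, against recolonized colon IEL. For recolonized against unmanipulated colon IEL the count of 1 higher claudin became 2 at 1.5-fold, and 0 at 3-fold, after centring and after the lowess correction; under quantile normalization it stayed 1, with Cldn4 in place of Cldn3. With Epcam, Cdh1 and Vil1 as the epithelial measure, the claudin median relative to epithelial markers was −3.07 against colon IEL, −1.83 against recolonized colon IEL and −1.18 between the recolonized and unmanipulated colon IEL arrays. The main values were −1.42, −0.82 and −0.37. Against recolonized colon IEL it was −0.063 with quantile normalization and −0.16 with lowess. The Cldn15 value relative to epithelial markers against colon IEL was −0.27 with the smaller marker set in place of 1.37; the cause was not tested. Among single claudins, 117 of the 128 recomputed differences kept their sign and their side of 2-fold, or moved by less than the SD over reference genes where the sign turned; 6 fell under 2-fold, 3 passed it and 2 turned sign below 2-fold. Of 160 recomputed values relative to epithelial markers, 134 did so, 10 fell under 2-fold, 7 passed it, 8 turned sign from a value below 2-fold and 1, that of Cldn15, turned sign from above it. Each claudin had 1 probe set, so the mean of probe sets could not change its difference, and these repeats count among the 117. Centring could not change a value relative to epithelial markers, and these repeats count among the 134. The scalings moved the median of all genes above the floor by −0.40 to 0.17. The share of higher among called genes was 35.8% against the LP-labelled array, 79.0% against recolonized and 80.3% against unmanipulated colon IEL, and 66.3% between the recolonized and unmanipulated colon IEL arrays. Under quantile normalization it was 49.5%, 50.8%, 50.4% and 48.8%, after centring 44.5%, 62.8%, 62.9% and 59.8%, and after the lowess correction 47.5%, 62.3%, 60.3% and 46.6%. No paired analysis was possible because each group is 1 array. Leaving out an array ends a comparison, so none was left out. Levels near the array median limit the sizes for Cldn2 and Cldn8, and for Cldn4 against colon IEL.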

Other observations

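Channel claudins carry sodium in parallel with transporters of the epithelial cell, and a list of sodium and chloride transport genes was read on the same arrays. Against the LP-labelled array, 7 of the 10 genes that passed the floor reached 2-fold lower in small intestinal IEL and 2 reached 2-fold higher, where 15.7% and 8.76% of all genes did. Slc12a2, the sodium, potassium and chloride cotransporter of secreting cells, was at 3.01 on the small intestinal IEL array, against 8.29 on the LP-labelled array, 2.55 on the recolonized array and 3.06 on the colon IEL array. The anion exchanger Slc26a3 differed by −4.47 and the chloride channel Cftr by −4.34. The higher genes were the anion exchanger Slc26a6 with 3.77 and, chosen after its values were seen, the sodium and glucose cotransporter Slc5a1 with 2.74.

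The subunits of the epithelial sodium channel were chosen after their values were seen. Scnn1a was at 3.09 on the small intestinal IEL array, against 6.60 on the LP-labelled array, 3.36 on the recolonized array and 2.26 on the colon IEL array. Scnn1b passed the floor only through the LP-labelled array, and its difference is limited by the low end of the small intestinal one. It was at 1.78 on the small intestinal IEL array and 2.91 on the LP-labelled array. Scnn1g was at 1.90 and 2.09 on the same arrays, below the median gene on each, so its difference is not read. Against the colon IEL arrays, 5 of the 9 transport genes that passed the floor reached 2-fold higher in small intestinal IEL for recolonized and 6 of 11 for unmanipulated mice, and none reached 2-fold lower. Over all genes 17.9% and 24.4% reached 2-fold higher in these comparisons.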
